A study of Bos taurus and other sequences with 9 samples.

Results

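Small RNA left in a commercially depleted fetal bovine serum, SBI-dFBS, was compared with that left in serum depleted by ultracentrifugation in the laboratory, UC-dFBS. These were 4 of the 9 samples of the series, 2 per medium, chosen by their labels, with every RNA of the tables of miRNA and of other small non-coding RNA included. Each sample was a culture medium, DMEM/F12 with Glutamax and penicillin-streptomycin, to which the depleted serum had been added, and no cells had grown in it. RNA was isolated from it with a column kit that binds EVs. The paper considers it likely that RNA from inside and outside of vesicles was sequenced. On vesicles pelleted separately by ultracentrifugation, it reports particle numbers in SBI-dFBS similar to untreated FBS and lower in UC-dFBS. The membrane protein CD71 gave a strong band in SBI-dFBS and none in UC-dFBS. For the RNA, fewer vesicles, less RNA per vesicle and less RNA outside of vesicles cannot be told apart. SBI-dFBS-1 and SBI-dFBS-2 held 2 lots of the depleted serum of System Biosciences. UC-dFBS-1 was made from serum sold by Sigma and UC-dFBS-2 from serum sold by Gibco, both of which were also sequenced without depletion as FBS-1 and FBS-2. The untreated serum from which SBI-dFBS was made was not among the samples, so the depletion method and the origin of the serum cannot be told apart in any difference given here. The spread between 2 samples of a medium holds the difference between 2 lots or 2 sera. The p-values measure only such spread, which the test of single RNAs pooled in large part over RNAs.

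Serum contains extracellular vesicles (EVs), which are membrane-enclosed particles released by cells, and RNA outside of vesicles that is bound to Argonaute proteins or lipoproteins. Long ultracentrifugation pellets vesicles and other dense particles and leaves the supernatant for use, whereas the procedure of the commercial serum is not given in the sources used here. miRNAs are short RNAs that guide Argonaute to messenger RNA, and several are made almost only in 1 tissue, so that a miRNA in serum can be set beside the cells known to make it. Fragments of tRNA, small nuclear RNA (snRNA, parts of the spliceosome), Y RNA (partners of the Ro protein) and small nucleolar RNA (snoRNA, guides of RNA modification) also circulate.

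The SBI-dFBS samples had 4403408 and 5970214 counts, and the UC-dFBS samples had 3536119 and 912341. Levels are given as spike-in normalized counts, which are counts divided by the slope of the counts of added synthetic RNAs on their concentration. The added RNAs had the size of miRNAs. The paper therefore considers the scaling likely to be less accurate for the other small RNAs, which were mostly longer. This slope was 9.04 and 3.78 counts per normalized count in the lots of SBI-dFBS, against 6.54 and 6.82 in the preparations of UC-dFBS. All levels of SBI-dFBS-2 therefore rest on the smallest of the 4 slopes, and the part of this in the results was not tested beyond the comparisons with other scalings given below.

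Total miRNA was 9584 and 16233 spike-in normalized counts in the first and second lot of SBI-dFBS, against 7767 and 3851 in the UC-dFBS samples. Both samples of SBI-dFBS lay above both samples of UC-dFBS. The means were 12908 ± 4701 and 5809 ± 2769 (SD, n = 2), a ratio of 2.22 ± 1.33 (SD propagated from both media). An exact permutation test (two-sided) returned p = 0.333, the lowest value that 2 samples against 2 can give, so that no class total could pass a threshold of 0.05. Raw miRNA counts were 86679 and 61315 in SBI-dFBS and 50776 and 26275 in UC-dFBS, also without overlap. Raw counts grow with the depth of a sample, however, and both samples of SBI-dFBS had more counts in all than both of UC-dFBS. The raw counts are thus no further support for a higher level.

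Total snRNA was 1005 and 2158 in SBI-dFBS and 612 and 310 in UC-dFBS, a ratio of 3.43 ± 2.38 (exact permutation test, p = 0.333). Here too the media did not overlap. Total tRNA, by far the largest class, was 475655 and 1561872 in SBI-dFBS and 532209 and 129130 in UC-dFBS, so that SBI-dFBS-1 lay below UC-dFBS-1. The ratio of the means was 3.08 ± 3.53, less than its own error (exact permutation test, p = 0.667). The lots of SBI-dFBS differed 3.28-fold in tRNA, and the preparations of UC-dFBS 4.12-fold.

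Total Y RNA ran the other way between the lots, with 594 in SBI-dFBS-1 and 252 in SBI-dFBS-2, on either side of 308 and 411 in UC-dFBS. The ratio of the means was 1.18 ± 0.714 (exact permutation test, p = 1). Without SBI-dFBS-1 it was 0.699. Total snoRNA was 37.6 and 42.9 in SBI-dFBS and 40.1 and 24.2 in UC-dFBS, a ratio of 1.25 ± 0.453 (exact permutation test, p = 0.667). piRNA reached 2 and 3 counts in SBI-dFBS and 1 count in each UC-dFBS sample, which is at or under the 3 counts that a count of 0 allows, and no ratio is given.

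**Figure D1:**
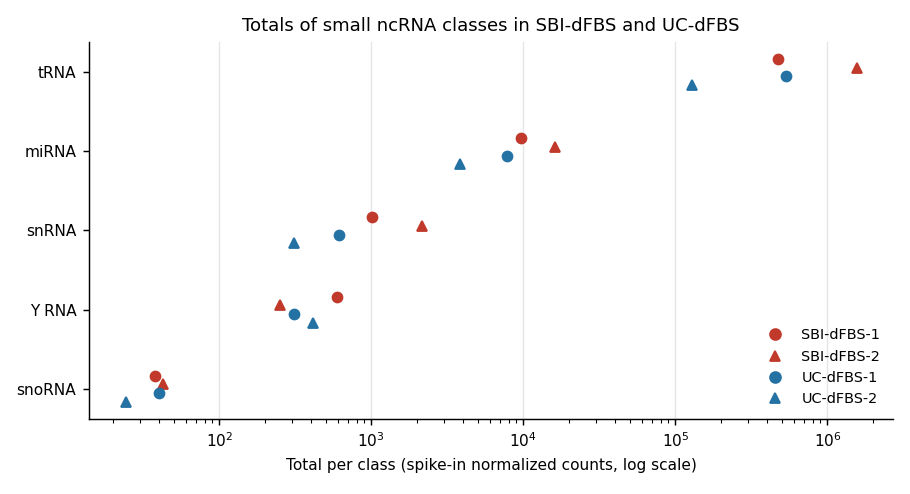
Total spike-in normalized counts of each RNA class (log axis), with 1 point per sample, in red for SBI-dFBS and in blue for UC-dFBS. The red points lie above the blue points for miRNA and snRNA, and the colours overlap for tRNA, Y RNA and snoRNA.

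Within the counts of a sample, tRNA made up 97.7% and 98.8% in SBI-dFBS and 98.4% and 96.6% in UC-dFBS. miRNA made up 1.97% (Wilson 95% confidence interval 1.96% to 1.98%) and 1.03% (1.02% to 1.04%) in the first and second lot of SBI-dFBS. It took 1.44% (1.42% to 1.45%) and 2.88% (2.85% to 2.91%) of the counts of the UC-dFBS preparations. These shares overlapped between the media, although the normalized miRNA totals did not. The ratio of the mean shares was 0.694, on the other side of 1 from the ratio of the totals.

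Most single miRNAs had the higher level in SBI-dFBS, and the ones that passed the test were led by miRNAs of red blood cells. Of 425 miRNAs in the table, 112 had at least 10 counts in at least 2 of the 4 samples and were tested, and together they held at least 98.6% of the miRNA counts of each sample. Of these, 29 (25.9%) were higher and 1 (0.893%) was lower in SBI-dFBS, by the quasi-likelihood test of edgeR on spike-in scaled counts with a Benjamini-Hochberg adjusted p under 0.05. The median log2 difference over all 112 was 0.92, a 1.89-fold higher level in SBI-dFBS, and 96 of them had a positive difference. The samples of SBI-dFBS lay above those of UC-dFBS for 64 miRNAs (57.1%) and below them for 7 (6.25%). Of the 29 called, 28 did not overlap, the exception being miR-128-3p with 13.4 and 1.06 in SBI-dFBS and 0.459 and 1.61 in UC-dFBS, and their log2 differences ranged from 1.54 to 5.38. The minimum of 10 counts could be met by 1 medium alone, and when all 4 samples had to meet it 18 were higher and 2 lower.

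The split between higher and lower depended on the scale. With TMM factors, which set the middle of the miRNAs equal between samples, 4 miRNAs were higher and 6 were lower, and the median was -0.08. The 4 were miR-144-5p, miR-144-3p, miR-451a and miR-93-5p. The 6 were miR-223-3p, miR-143-3p, miR-126-3p, miR-155-5p, let-7c-5p and let-7e-5p. Leaving out 1 sample left a medium with 1 sample, which was then taken to vary like the samples of the other medium, on 1 residual degree of freedom. No miRNA passed without SBI-dFBS-1 or without SBI-dFBS-2. Of the 29 miRNAs, 23 still had enough counts for the test without SBI-dFBS-1, with a median log2 difference of 2.19 (2.12 with all samples). Without SBI-dFBS-2, 24 had enough, with a median of 2.04 (2.18 with all samples). All were positive, but the 29 were chosen as higher in these same samples, and 28 of them did not overlap. Their sign was thus nearly fixed in advance and is no further support. Without UC-dFBS-1, 16 were higher and 1 lower, and without UC-dFBS-2 1 was higher, miR-144-5p, and 1 lower, miR-223-3p.

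**Figure D2:**
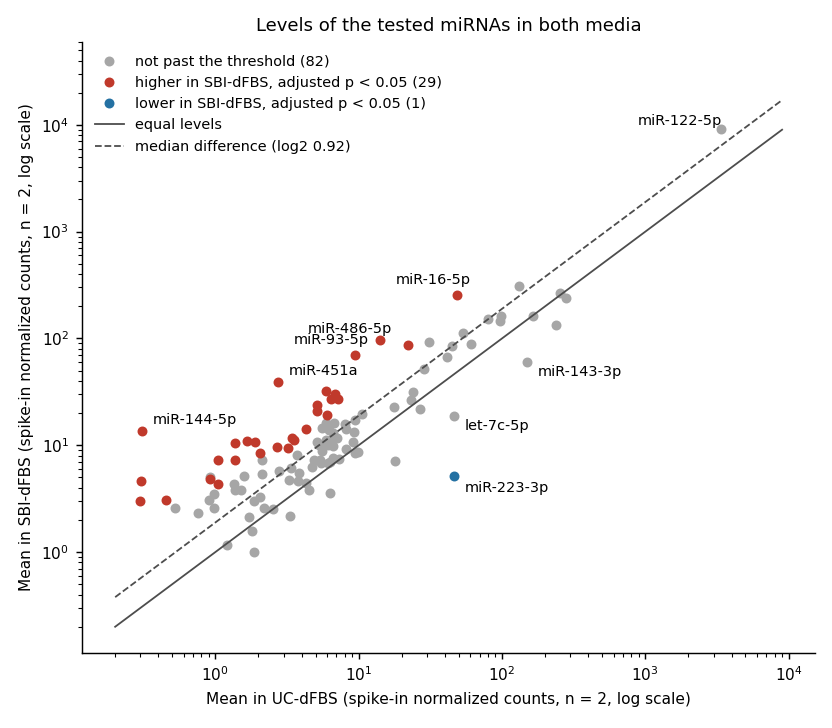
Mean level of each of the 112 tested miRNAs in UC-dFBS (x axis) and SBI-dFBS (y axis), in spike-in normalized counts on log axes, with red and blue for miRNAs past the threshold. Most points lie along the dashed line, which marks the median log2 difference of 0.92, with miR-144-5p and miR-451a far above it and miR-223-3p far below the solid line of equal levels.

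The most abundant miRNA of both media was hsa-miR-122-5p, which is made by hepatocytes. It had 6517 and 11915 spike-in normalized counts in SBI-dFBS and 4629 and 2100 in UC-dFBS. The media did not overlap, but the log2 difference of 1.45 ± 0.99 (SE) missed the threshold (edgeR, adjusted p = 0.287). It took up 68.0% and 73.4% of the miRNA counts in SBI-dFBS and 59.6% and 54.5% in UC-dFBS. The Wilson 95% confidence intervals of the samples nearest to each other were 67.7% to 68.3% in SBI-dFBS-1 and 59.2% to 60.0% in UC-dFBS-1. These shares need no spike-in, and they did not overlap between the media. Without miR-122-5p, the ratio of total miRNA between SBI-dFBS and UC-dFBS was 1.51 and the media overlapped (exact permutation test, p = 0.667).

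The next most abundant miRNAs of the 4 samples were let-7b-5p, let-7a-5p, miR-142-3p, miR-126-3p, let-7f-5p and miR-16-5p. Of the 15 miRNAs with the highest mean, 1 passed the test, miR-16-5p. The levels of hsa-let-7b-5p were 219 and 318 in SBI-dFBS and 323 and 183 in UC-dFBS, and those of hsa-let-7a-5p were 130 and 352 in SBI-dFBS and 381 and 178 in UC-dFBS. In both cases the samples of the media were interleaved, with log2 differences of 0.09 ± 0.83 (adjusted p = 0.944) and -0.21 ± 0.87 (adjusted p = 0.862). hsa-miR-21-5p, a widely made miRNA, had 93.1 and 233 in SBI-dFBS and 134 and 64.5 in UC-dFBS, which also overlapped.

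Of 9 miRNAs of the red-cell list in the table, 7 were tested, and all 7 passed with the higher level in SBI-dFBS, against 25.9% of all miRNAs tested. Of the 7, miR-144-5p and miR-144-3p reached the minimum count in SBI-dFBS only and so could hardly come out lower. The median log2 difference of the 7 was 2.77, which is 1.85 above the median of all miRNAs. The difference was positive for all 7 also with TMM factors, where 3 passed and the median was 1.76, and with total counts as library size, where none passed and the median was 1.04. miR-25-3p and miR-92a-3p are also members of the miR-17-92 list, miR-16-5p of the list of miR-15, miR-16 and miR-103 and miR-486-5p of the muscle list.

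hsa-miR-451a, the most abundant miRNA of mature red cells, had 32.7 and 45.5 spike-in normalized counts in SBI-dFBS and 3.82 and 1.61 in UC-dFBS. Every sample of SBI-dFBS was thus several-fold above every sample of UC-dFBS, with a log2 difference of 3.84 ± 0.67 (edgeR, adjusted p = 0.00158), a 14.3-fold higher level. It passed in 10 of 14 alternative settings. In the untreated sera it had 71.8 in FBS-1 and 32.6 in FBS-2, so that the mean was 0.749 times that of FBS in SBI-dFBS, which was not made from these sera, and 0.052 times in UC-dFBS.

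hsa-miR-144-5p and hsa-miR-144-3p come from the same primary transcript as miR-451a. hsa-miR-144-5p had 7.52 and 19.6 in SBI-dFBS and 0.612 and 0 in UC-dFBS, from 68, 74, 4 and 0 counts. Its fitted log2 difference was 5.38 ± 0.88 (edgeR, adjusted p = 0.00128), and since 1 sample was at 0 the size depends on the model. The ratio of the summed counts per spike-in slope was 37.0, with an exact 95% counting interval of 14.1 to 138. hsa-miR-144-3p had 3.65 and 5.56 in SBI-dFBS and 0.459 and 0.147 in UC-dFBS, from 3 and 1 counts, a counting ratio of 14.1 (interval 5.19 to 53.5; edgeR, adjusted p = 0.00946).

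hsa-miR-486-5p, made in red cells and in muscle, had 132 and 60.1 in SBI-dFBS and 10.6 and 17.6 in UC-dFBS. Its log2 difference was 2.77 ± 0.76 (edgeR, adjusted p = 0.0199). hsa-miR-16-5p, abundant in most blood cells, had 260 and 248 in SBI-dFBS and 60.4 and 36.2 in UC-dFBS, a log2 difference of 2.40 ± 0.83 (adjusted p = 0.0393). In both the media were well apart, and the lots of SBI-dFBS were nearly equal for miR-16-5p.

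The second group of called miRNAs belonged to miR-17-92 and its paralogs, clusters of miRNAs made in dividing cells. Of 7 tested, 4 were higher in SBI-dFBS and none was lower, and all 7 had SBI-dFBS above UC-dFBS in every sample, against 25.9% higher and 57.1% without overlap over all miRNAs. One of the 7, miR-17-5p, reached 10 counts in SBI-dFBS only and so could hardly come out lower. The median of the list was 1.97. hsa-miR-93-5p had 56.6 and 83.1 in SBI-dFBS and 11.9 and 6.89 in UC-dFBS, a log2 difference of 2.89 ± 0.69 (edgeR, adjusted p = 0.0111). hsa-miR-106b-3p, from the same cluster, had 6.63 and 14.6 in SBI-dFBS and 2.29 and 0.440 in UC-dFBS, with a log2 difference of 2.92 ± 0.70 (adjusted p = 0.0111). hsa-miR-25-3p, the third member of the cluster, had 93.5 and 80.5 against 20.5 and 23.9, with a log2 difference of 1.97 ± 0.69 (adjusted p = 0.0424). All 7 were positive also with TMM factors and with total counts as library size, with medians of 0.94 and 0.37, but 1 and 0 of them passed.

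Of the 5 tested miRNAs of the list of miR-15, miR-16 and miR-103, which share most of their seed, miR-16-5p and miR-15b-5p were higher in SBI-dFBS. hsa-miR-15b-5p had 5.53 and 3.18 in SBI-dFBS and 1.07 and 1.03 in UC-dFBS, a log2 difference of 2.06 ± 0.70 (edgeR, adjusted p = 0.0393). hsa-miR-103a-3p of the same list had 22.8 and 39.7 in SBI-dFBS and 28.5 and 19.6 in UC-dFBS, where the samples were interleaved. Both miR-15b-5p and miR-15a-5p reached 10 counts in SBI-dFBS only and so could hardly come out lower. The median of the list was 1.65, and it was -0.05 with total counts as library size.

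The DLK1-DIO3 locus is an imprinted region whose miRNAs are made mostly in fetal tissues, placenta and brain. Of 55 of its miRNAs in the table, 16 were tested, and 8 (50.0%) were higher in SBI-dFBS and none was lower, against 25.9% over all miRNAs. For 15 the samples of SBI-dFBS lay above those of UC-dFBS, against 57.1% over all. Among the 16, miR-136-3p, miR-376c-3p, miR-493-5p and miR-493-3p reached the minimum count in SBI-dFBS only and so could hardly come out lower. All of these were without overlap, and miR-136-3p and miR-376c-3p were among the 8 that passed. The median log2 difference of the 16 was 1.66, which is 0.74 above that of all miRNAs. With TMM factors 13 of the 16 stayed positive and none passed, and with total counts as library size 8 were positive and the median was -0.03.

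hsa-miR-381-3p of this locus had 8.85 and 13.0 in SBI-dFBS and 1.84 and 1.47 in UC-dFBS, a log2 difference of 2.70 ± 0.57 (edgeR, adjusted p = 0.00575). hsa-miR-299-3p had 7.08 and 14.3 in SBI-dFBS and 2.91 and 0.879 in UC-dFBS, a log2 difference of 2.47 ± 0.64 (adjusted p = 0.0165). hsa-miR-369-3p had 11.6 and 42.1 in SBI-dFBS and 7.34 and 5.42 in UC-dFBS, with a log2 difference of 2.05 ± 0.65 (adjusted p = 0.0307). In each of these 3 both lots of SBI-dFBS lay above both preparations of UC-dFBS.

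hsa-miR-136-3p and hsa-miR-376c-3p passed with few counts. hsa-miR-136-3p had 1.22 and 4.77 in SBI-dFBS and 0.306 and 0.293 in UC-dFBS, from 11, 18, 2 and 2 counts, a counting ratio of 7.55 with an interval of 2.65 to 29.6 (edgeR, adjusted p = 0.0393). hsa-miR-376c-3p had 2.43 and 3.71 in SBI-dFBS and 0.612 and 0.293 in UC-dFBS, from 4 and 2 counts, a counting ratio of 6.25 with an interval of 2.61 to 18.2 (adjusted p = 0.0393). hsa-miR-432-5p, the most abundant miRNA of the locus, had 70.9 and 114 in SBI-dFBS and 38.2 and 24.0 in UC-dFBS, which did not overlap but missed the threshold (adjusted p = 0.120).

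Of the 5 tested miRNAs of the liver list, 3 were higher in SBI-dFBS, and all 5 had both samples of SBI-dFBS above both of UC-dFBS, against 25.9% and 57.1% over all miRNAs. None of the 5 passed with TMM factors or with total counts as library size. hsa-miR-101-3p had 23.7 and 41.0 in SBI-dFBS and 8.11 and 3.66 in UC-dFBS, a log2 difference of 2.45 ± 0.63 (edgeR, adjusted p = 0.0165). hsa-miR-192-5p, made in liver and gut, had 19.6 and 40.2 in SBI-dFBS and 7.34 and 6.30 in UC-dFBS, a log2 difference of 2.12 ± 0.60 (adjusted p = 0.0218). Its partner in the genome, hsa-miR-194-5p, had 7.85 and 9.00 against 3.06 and 1.03 (adjusted p = 0.0290). miR-122-5p and miR-148a-3p, the most abundant of the list, missed the threshold. The median of the list was 2.03, and it was 0.13 with total counts as library size, where 3 of 5 were positive.

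Muscle and heart miRNAs summed to 212 and 72.8 spike-in normalized counts in SBI-dFBS and to 16.5 and 22.9 in UC-dFBS, and in each sample most of the sum was miR-486-5p, which is also on the red-cell list. Of 3 tested, miR-486-5p and miR-378a-3p were higher in SBI-dFBS. hsa-miR-378a-3p, which lies in a gene of mitochondrial metabolism, had 15.8 and 7.68 in SBI-dFBS and 2.75 and 4.10 in UC-dFBS, a log2 difference of 1.79 ± 0.56 (edgeR, adjusted p = 0.0307). Of the miRNAs made nearly only in striated muscle, 4 reached 10 counts in SBI-dFBS-1 only and were therefore not tested. hsa-miR-133a-3p had 389, 4, 3 and 3 counts in SBI-dFBS-1, SBI-dFBS-2, UC-dFBS-1 and UC-dFBS-2. In the same order, hsa-miR-499a-5p had 65, 2, 0 and 1 counts, hsa-miR-206 had 42, 4, 1 and 1, and hsa-miR-208b-3p had 28, 1, 0 and 0. hsa-miR-1, which was tested, had 5.53 and 2.12 in SBI-dFBS and 2.60 and 0.440 in UC-dFBS, with overlap (adjusted p = 0.217). SBI-dFBS-2 was at no more than 4 counts for each of the untested 4, as was UC-dFBS, so that 1 lot sets this difference.

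Only hsa-miR-223-3p, a miRNA of myeloid cells and platelets, passed with the lower level in SBI-dFBS. It had 3.98 and 6.35 spike-in normalized counts in SBI-dFBS and 54.6 and 37.5 in UC-dFBS. Its log2 difference was -3.18 ± 0.66 (edgeR, adjusted p = 0.00575), a 9.06-fold lower level, and it lay 4.10 below the median of all miRNAs. It passed in 10 of 14 alternative settings and had the same sign in all 14. The untreated sera had 308 in FBS-1 and 201 in FBS-2. The mean was thus 0.020 times that of FBS in SBI-dFBS, which was not made from these sera, and 0.181 times in UC-dFBS.

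miR-451a and miR-223-3p can be set against each other within a sample, without any scaling. Both had passed in these same samples in opposite directions without overlap. That their ratio splits the media follows from this and is no further support. SBI-dFBS held 8.22 and 7.17 counts of miR-451a per count of miR-223-3p. UC-dFBS held 0.070 and 0.043, and the untreated sera held 0.233 and 0.163. The order of both miRNAs was thus opposite in the media, with miR-451a the more frequent of the pair in both lots of SBI-dFBS and miR-223-3p in both preparations of UC-dFBS and in FBS.

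No other white cell or platelet miRNA passed. The median log2 difference of the 7 tested was 0.38, and 5 were positive, against 2 with TMM factors. hsa-miR-142-3p, made in blood-forming cells, had 120 and 494 in SBI-dFBS and 192 and 71.7 in UC-dFBS, where the samples overlapped. hsa-miR-191-5p had 18.9 and 10.1 in SBI-dFBS and 5.97 and 5.13 in UC-dFBS, a log2 difference of 1.40 ± 0.53 that just missed the threshold (edgeR, adjusted p = 0.0585). hsa-miR-155-5p, of activated lymphocytes and macrophages, had 2.99 and 4.24 in SBI-dFBS and 5.97 and 6.60 in UC-dFBS, which did not overlap but missed the threshold (adjusted p = 0.281).

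**Figure D3:**
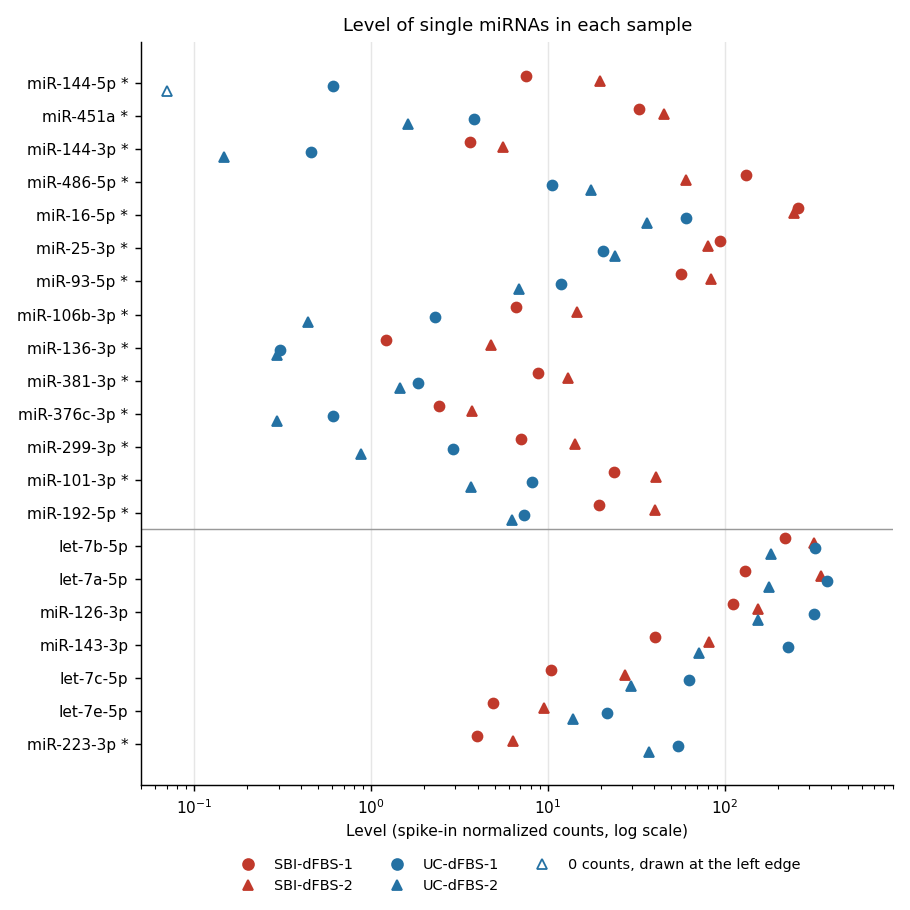
Level of 21 miRNAs in each of the 4 samples (spike-in normalized counts, log axis), with an asterisk for those past the threshold. Above the grey line, 14 miRNAs have both red points (SBI-dFBS) to the right of both blue points (UC-dFBS), and at the bottom miR-223-3p shows the reverse, while let-7a-5p and let-7b-5p are interleaved.

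None of the 9 tested members of the let-7 family, which marks differentiated tissue in general, passed in either direction. Their median log2 difference was -0.01, which is 0.93 below the median of all miRNAs, and 4 of the 9 were positive, against 1 with TMM factors. hsa-let-7e-5p had 4.86 and 9.53 in SBI-dFBS and 21.7 and 13.9 in UC-dFBS, a log2 difference of -1.34 ± 0.55 (edgeR, adjusted p = 0.0828). hsa-let-7c-5p had 10.4 and 27.3 in SBI-dFBS and 62.7 and 29.6 in UC-dFBS, a log2 difference of -1.31 ± 0.68 (adjusted p = 0.172). For both, all samples of SBI-dFBS lay below those of UC-dFBS, and both passed with TMM factors.

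Of 10 tested vascular miRNAs, likewise none passed. Their median was 0.21, with 7 positive, against 2 with TMM factors. hsa-miR-126-3p, the main miRNA of endothelial cells, had 111 and 155 in SBI-dFBS and 320 and 155 in UC-dFBS, where SBI-dFBS-2 and UC-dFBS-2 were equal to 3 digits, with a log2 difference of -0.84 ± 0.82 (adjusted p = 0.467). hsa-miR-143-3p, of smooth muscle, had 40.6 and 81.0 in SBI-dFBS and 227 and 71.8 in UC-dFBS, with a log2 difference of -1.30 ± 0.83 (adjusted p = 0.253). With TMM factors, 2 let-7 and 2 vascular miRNAs passed with the lower level in SBI-dFBS.

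The makeup of the miRNA counts of a sample, which does not depend on the spike-ins, differed in these and in most other lists. let-7 miRNAs took up 5.84% and 7.30% of the miRNA counts in SBI-dFBS and 14.9% and 15.3% in UC-dFBS. Vascular miRNAs took up 2.32% and 1.93% in SBI-dFBS and 8.04% and 7.12% in UC-dFBS. Red-cell miRNAs took up 5.91% and 2.90% in SBI-dFBS and 1.31% and 2.2% in UC-dFBS, and liver miRNAs, nearly all miR-122-5p, 70.1% and 74.9% against 61.1% and 56.4%. In none of these 4 lists did the media overlap, but this also held for most of the other lists. DLK1-DIO3 miRNAs, for example, took up 2.12% and 2.00% in SBI-dFBS and 1.35% and 1.83% in UC-dFBS. White cell and platelet miRNAs took up 2.33% and 4.16% in SBI-dFBS and 4.49% and 4.62% in UC-dFBS. A sample with a larger share of miR-122-5p has less room for all others, and among the counts of the other miRNAs, a comparison added after the data were seen, let-7 took up 18.3% and 27.5% in SBI-dFBS and 36.8% and 33.6% in UC-dFBS. Red-cell miRNAs took up 18.5% and 10.9% in SBI-dFBS and 3.24% and 4.84% in UC-dFBS on that scale, and vascular miRNAs 7.25% and 7.24% against 19.9% and 15.7%, again without overlap. Several other lists did not overlap on that scale either. The white cell and platelet list did overlap on it, with 7.28% and 15.7% in SBI-dFBS and 11.1% and 10.2% in UC-dFBS.

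The remaining lists held no called miRNA. The 4 tested miRNAs of the miR-30 family had a median log2 difference of 0.54 and the 4 of the miR-320 family of 0.12, with 3 positive in each, and none of them was positive with TMM factors. Of the epithelial list only hsa-miR-203a, a miRNA of keratinocytes, was tested, with 4.09 and 8.21 in SBI-dFBS and 3.52 and 3.22 in UC-dFBS (edgeR, adjusted p = 0.296). The paper found miR-203a mainly as short inserts and in all media, and considers that it could be an experimental artifact. The atypical list holds short RNAs whose status as miRNA is in doubt. It also holds miR-203a. Of its other members, hsa-miR-1246 had 11.7 and 20.6 in SBI-dFBS and 7.34 and 4.54 in UC-dFBS. hsa-miR-4532 had 8.96 and 1.06 in SBI-dFBS against 1.68 and 0.147 in UC-dFBS, and both had an adjusted p of 0.0585 (edgeR).

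**Figure D4:**
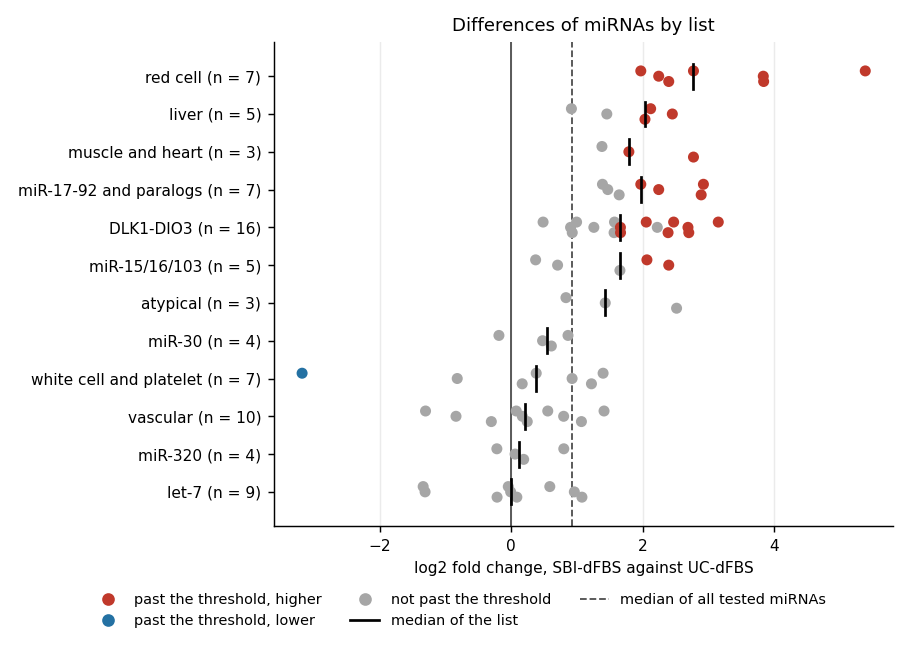
log2 difference between SBI-dFBS and UC-dFBS of each tested miRNA, by list, with a black bar at the median of the list, a solid line at 0 and a dashed line at the median of all miRNAs (0.92). Red-cell miRNAs have a median of 2.77 and are all past the threshold, and let-7 miRNAs have a median of -0.01 with none past it.

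The study also grouped miRNAs by the carrier that the literature reports for them. Of 58 tested miRNAs that were reported outside of vesicles only, 15 were higher (25.9%) and 1 lower in SBI-dFBS, with a median of 0.77. Of 22 reported in vesicles, 3 were higher (13.6%) and none was lower, with a median of 0.98. Of 14 tested from a list of miRNAs common in EVs, 4 were higher (28.6%), with a median of 1.17. These shares and medians lay near the 25.9% and the median of 0.92 of all miRNAs, apart from the lower share in the vesicle list, and the difference between the lists was not tested. The list reported outside of vesicles only took up 86.0% and 86.2% of miRNA counts in SBI-dFBS and 79.2% and 78.2% in UC-dFBS, most of it miR-122-5p. Among the counts of the other miRNAs it took up 56.4% and 48.0% in SBI-dFBS and 48.4% and 52.0% in UC-dFBS, where the media overlapped.

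More miRNAs and more tRNA, snRNA and Y RNA loci passed the detection level in SBI-dFBS. At a level above 1 normalized count in either sample of a medium, 152 miRNAs were found in SBI-dFBS and 120 in UC-dFBS, with 116 in both. The shared miRNAs were 76.3% of those of SBI-dFBS and 96.7% of those of UC-dFBS. The 4 found above the level only in UC-dFBS were miR-150-5p, a miRNA of lymphocytes, miR-652-3p, miR-125a-5p and miR-760. hsa-miR-652-3p had 0.442 and 0.794 in SBI-dFBS and 3.82 and 1.17 in UC-dFBS, and hsa-miR-150-5p had 0.111 and 0.529 against 1.84 and 1.03. The 36 above the level only in SBI-dFBS included miR-144-5p, miR-144-3p, miR-136-3p, miR-376c-3p and the 4 muscle miRNAs. For tRNA, 316 loci were found in SBI-dFBS, and they included each of the 243 found in UC-dFBS. For snRNA the numbers were 48 and 42 with 41 shared, for Y RNA 18 and 14 with 13 shared, and for snoRNA 5 and 5 with 3 shared. A floor of 3 counts was 0.332 and 0.794 normalized counts in SBI-dFBS and 0.459 and 0.440 in UC-dFBS, so that RNAs just under the level rest on few counts. In counts, the level was 9.04 in SBI-dFBS-1 but only 3.78 in SBI-dFBS-2, against 6.54 and 6.82 in UC-dFBS. Thus miR-323a-3p was found only in SBI-dFBS, with 4 and 4 counts there and 2 and 5 in UC-dFBS.

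No locus of the other small ncRNA classes passed the test, and the samples of each medium differed from each other about as much as the media did. Of 1361 loci, 309 were tested, and 0 (0.0%) were higher and 0 (0.0%) lower in SBI-dFBS (edgeR, lowest adjusted p = 0.542), with 12 at an unadjusted p under 0.05. DESeq2 with the spike-in factors found 11 higher and none lower, and with its own factors none. The median log2 difference was 1.95 and 303 of 309 loci were positive. Samples of SBI-dFBS lay above those of UC-dFBS at 147 loci (47.6%) and below at 0 (0.0%). The 2 samples of a medium differed by a median of 1.93 on the log2 scale in SBI-dFBS and 1.94 in UC-dFBS, against 0.72 and 0.75 for the miRNAs. With TMM factors the median was -0.33.

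By class, the median log2 difference was 2.11 over 260 tRNA loci, 1.28 over 32 snRNA loci, 0.30 over 14 Y RNA loci and 0.30 over 3 snoRNA loci. The samples of SBI-dFBS lay above those of UC-dFBS at 132 tRNA loci (50.8%), 11 snRNA loci (34.4%), 3 Y RNA loci (21.4%) and 1 snoRNA locus. These loci are not independent, since copies of a tRNA or snRNA gene can share reads, and how the authors placed such reads is not given in the sources used here.

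The tRNA counts came mostly from 2 anticodons. Loci of histidine tRNA with the anticodon GTG summed to 189591 and 900734 in SBI-dFBS and to 319966 and 32890 in UC-dFBS. As a share of tRNA this was 39.9% and 57.7% in SBI-dFBS and 60.1% and 25.5% in UC-dFBS, so that the media were interleaved on both scales. Loci of glycine tRNA with the anticodon CCC summed to 150446 and 334033 in SBI-dFBS and to 129456 and 62553 in UC-dFBS, a ratio of 2.52 ± 1.84. Their sums did not overlap, but their share of tRNA did, with 31.6% and 21.4% in SBI-dFBS and 24.3% and 48.4% in UC-dFBS. The ratio of the mean shares was 0.729. In each medium, the sample with the larger share of HisGTG had the smaller share of GlyCCC.

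Of 50 anticodons with at least 40 counts over the 4 samples, all had the higher mean in SBI-dFBS, 31 did not overlap, and the median ratio was 4.25. As a share of tRNA, 14 were higher and 2 lower in SBI-dFBS without overlap. Glutamate tRNA with the anticodon CTC had 5957 and 10527 in SBI-dFBS and 1128 and 454 in UC-dFBS, a ratio of 10.4 ± 7.49, and its share was 3.42 times as high. Lysine tRNA with the anticodon CTT had 1753 and 3492 in SBI-dFBS and 578 and 15.8 in UC-dFBS, with a share 4.90 times as high. Valine tRNA with the anticodon CAC had 23886 and 42101 in SBI-dFBS and 12574 and 1569 in UC-dFBS, with a share 2.16 times as high. In these 3 the samples of the media did not overlap on either scale, and each exact permutation test gave p = 0.333, the lowest possible. Alanine tRNA with the anticodon TGC was interleaved, with 3580 and 31667 in SBI-dFBS and 10465 and 4757 in UC-dFBS.

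The tRNA locus with the highest mean was tRNA34-GlyCCC (GRCh37, chromosome 16, 686736 to 686806, minus strand), with 77762 and 172453 in SBI-dFBS and 67347 and 32607 in UC-dFBS. Its log2 difference of 1.32 ± 1.65 was below its error (edgeR, adjusted p = 0.597). tRNA7-HisGTG (chromosome 9, 14433938 to 14434009, minus strand) had 24336 and 121960 in SBI-dFBS and 43583 and 4694 in UC-dFBS, a log2 difference of 1.60 ± 1.71 (adjusted p = 0.589). The largest differences without overlap, none past the threshold, included 2 loci that the table names as pseudogenes. tRNA92-PseudoGAA (chromosome 1, 149672905 to 149672976, minus strand) had 126 and 1077 in SBI-dFBS and 45.4 and 25.1 in UC-dFBS, and tRNA100-PseudoGAA, which may share its reads, had 116 and 1031 against 41.2 and 26.4.

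**Figure D5:**
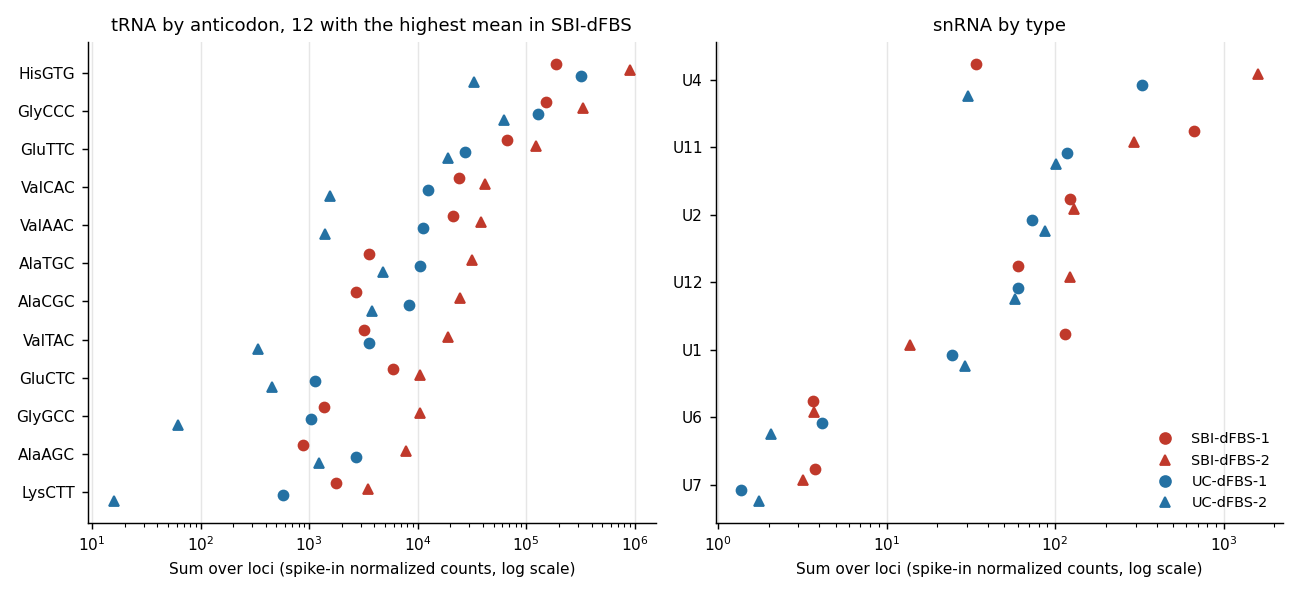
Sums over loci of the 12 tRNA anticodons with the highest mean in SBI-dFBS (left) and of 7 snRNA types (right) in each sample, in spike-in normalized counts on log axes. UC-dFBS-2 lies farthest left for ValCAC (1569) and LysCTT (15.8), and the red and blue points of U4 are interleaved over a range from 30.5 to 1591.

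Which snRNA type led differed between samples, with U11 the largest in SBI-dFBS-1 (66.2% of snRNA) and UC-dFBS-2 (32.6%) and U4 the largest in SBI-dFBS-2 (73.7%) and UC-dFBS-1 (53.9%). U11, of the minor spliceosome, had 665 and 294 in SBI-dFBS and 118 and 101 in UC-dFBS, a ratio of 4.38 ± 2.44 without overlap (exact permutation test, p = 0.333). Nearly all of it came from the locus RNU11-201 (chromosome 1, 28975112 to 28975245, plus strand; log2 difference 2.13 ± 2.06, edgeR, adjusted p = 0.576). U4, of the major spliceosome, had 33.9 and 1591 in SBI-dFBS and 330 and 30.5 in UC-dFBS. The lots of SBI-dFBS thus differed 46.9-fold in U4, more than the 4.51-fold between the means of the media.

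U2, which pairs with the branch point, had 122 and 129 in SBI-dFBS and 72.8 and 87.4 in UC-dFBS, a ratio of 1.57 ± 0.210 with narrow spread and no overlap (exact permutation test, p = 0.333). U12, its counterpart in the minor spliceosome, had 60.4 and 122 in SBI-dFBS and 60.0 and 58.0 in UC-dFBS, where SBI-dFBS-1 was hardly above UC-dFBS-1. U1, which binds the 5′ splice site, had 115 and 13.8 in SBI-dFBS and 24.5 and 29.0 in UC-dFBS, which overlapped. Of 7 types, 4 did not overlap, all with the higher level in SBI-dFBS, but as a share of snRNA none was higher and 2 were lower, U12 and U6.

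The main Y RNA loci had the same pattern as the class. Y_RNA.384-201 (chromosome 7, 6252269 to 6252371, minus strand) had 184 and 59.8 in SBI-dFBS and 86.4 and 108 in UC-dFBS, with both preparations of UC-dFBS between the lots of SBI-dFBS (log2 difference 0.32 ± 1.97, edgeR, adjusted p = 0.893). The same order held at Y_RNA.493-201, with 119 and 52.4 against 74.8 and 107. An exception was Y_RNA.725-201 (chromosome 9, 72926523 to 72926617, minus strand), with 6.30 and 3.18 in SBI-dFBS and 0.153 and 0.293 in UC-dFBS, from 57, 12, 1 and 2 counts. Its counting ratio was 24.0 with an interval of 7.87 to 119, and it missed the threshold (edgeR, adjusted p = 0.542). Of the snoRNAs, SNORD94-201 (chromosome 2, 86362993 to 86363129, plus strand) had 29.4 and 27.5 in SBI-dFBS and 22.9 and 18.8 in UC-dFBS, a small difference without overlap (log2 difference 0.45 ± 1.79, adjusted p = 0.846).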

How the data were processed

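The authors sequenced RNA from 3 ml of each medium per the labels, with 75 bp reads and unique molecular indices of 12 nt. The study's methods give a slightly larger volume. Distinct pairs of insert and index were kept, and reads were mapped to mature miRNAs and then to human GRCh37. The serum is bovine, so that bovine RNAs that differ from human may be missed or misplaced. The study also mapped to the bovine genome, and it reports that the human miRNA reads of serum media matched bovine miRNAs almost completely. The submitters' processing notes name cutadapt 1.11 and Bowtie2 2.2.2. The deposited counts are such reads per miRNA (425) or locus (1361). The second deposited unit, a spike-in normalized signal, was obtained by the authors as the count over the slope of a line through zero fitted to the spike-ins. The ratio of both was checked to be constant within each sample. The study plots the standard deviation of the spike-in fit as error bars of its class totals. The values used here hold no such error, and none was carried into the results.

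miRNAs and other loci with at least 10 counts in at least 2 of the 4 samples were tested separately with edgeR 4.0.16 in R 4.3.3 (F-test of the quasi-likelihood fit, p-values adjusted by Benjamini-Hochberg, threshold 0.05), with library sizes proportional to the spike-in slopes. The SE was the log2 difference divided by the root of F. The fit drew the spread of each miRNA towards that of all, with 14.8 prior against 2 residual degrees of freedom. For the other loci the prior was infinite, so that only the spread pooled over loci counted. Class totals were compared by exact two-sided permutation tests on log2 values, whose lowest p is 0.333. Wilson intervals, exact intervals of counting ratios and floors of 3 counts cover counting error only. Scripts ran in python 3.11.15 (numpy 2.4.6, pandas 2.3.3, scipy 1.17.1) and were tested on simulated data. Alternatives were TMM, total counts, DESeq2 1.42.0, other filters, a replicate block and leaving out each sample.

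RNAs were named as the 15 most abundant miRNAs, up to 10 miRNAs and 6 loci per direction with the largest called difference without overlap and a mean of at least 1, filled up to 5 from those that missed the threshold, the 3 most abundant loci per class, the miRNAs that the study names, and 4 members per list (2 by mean and 2 by difference). miR-128-3p, miR-194-5p, the RNAs found in 1 medium only and the anticodons were chosen after their values were seen. The members and lists were chosen with earlier results of these data known. A search of sequences for shared features was planned but not run, since no sequences of these RNAs were used here.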

Additional observations from a re-analysis of the deposited data

How the results depend on the processing

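Results rest on 2 samples per medium and on 4 spike-in slopes, whose error was not carried into them. Class totals therefore cannot pass a test, and a shift of all RNAs cannot be told apart from an error of the slopes. The number of miRNAs higher in SBI-dFBS, 29 by edgeR on the spike-in scale, was 18 with the minimum in all 4 samples, 18 with DESeq2 on the spike-in factors, 6 with its own factors, 4 with TMM, 0 with total counts and 0 to 16 when 1 sample was left out. The number lower, 1, was 2 with the minimum in all samples, 6 with the own factors of DESeq2, 6 with TMM, 0 with total counts and 0 to 1 when 1 sample was left out. For other small ncRNA, DESeq2 on the spike-in factors gave 11 higher. The cause of these changes was not tested.

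Replicate numbers share no serum between these media, and samples with the same number did not deviate together (Pearson's r of the differences over RNAs was -0.404 for miRNA and -0.490 for other small ncRNA). With the number as replicate block, 6 miRNAs were higher and 0 lower, and no other locus passed in either direction. With the crossed pairing, added after seeing the data, 53 miRNAs were higher and 5 lower, and no other locus passed.

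The median log2 difference of miRNAs changed sign with the own factors of DESeq2 (-0.050), TMM (-0.081) and total counts (-0.70), and that of other loci with the own factors of DESeq2 (-0.14) and TMM (-0.33). As a share of all counted reads, the ratio of SBI-dFBS to UC-dFBS was 0.694 for miRNA, 0.994 for snRNA, 0.378 for Y RNA and 0.409 for snoRNA. That of total Y RNA was 0.699 without SBI-dFBS-1, within a range of 0.699 to 1.65 over the samples left out. As a share of the class, the ratio was 0.729 for GlyCCC, 0.492 for AlaTGC, 0.453 for U2, 0.409 for U12 and 0.902 for U1.

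RNAs with values in the text that changed sign included the following. With total counts, the log2 difference was -0.21 for miR-122-5p, -1.59 for let-7b-5p, -0.67 for miR-142-3p, -1.11 for miR-21-5p, -0.67 for miR-148a-3p, -0.20 for miR-432-5p, -1.13 for miR-203a, -1.47 for miR-103a-3p, -0.11 for miR-191-5p, -0.082 for miR-369-3p, -0.34 for miR-1246, -0.45 for tRNA34-GlyCCC, -1.22 for Y_RNA.384-201 and -1.23 for SNORD94-201. With the own factors of DESeq2 it was -0.88 for let-7b-5p, -0.25 for miR-21-5p, -0.042 for miR-148a-3p, -0.20 for miR-203a, -0.63 for miR-103a-3p, -0.90 for tRNA34-GlyCCC, -0.26 for tRNA7-HisGTG, -1.64 for Y_RNA.384-201 and -1.65 for SNORD94-201. With TMM it was -0.91 for let-7b-5p, -0.31 for miR-21-5p, -0.056 for miR-148a-3p, -0.22 for miR-203a, -0.66 for miR-103a-3p, -0.91 for tRNA34-GlyCCC, -0.60 for tRNA7-HisGTG, -1.52 for Y_RNA.384-201 and -1.59 for SNORD94-201. Without SBI-dFBS-1 it was 0.33 for let-7a-5p and -0.70 for Y_RNA.384-201, without SBI-dFBS-2 -0.21 for let-7b-5p, -0.13 for miR-142-3p, -0.091 for miR-21-5p and -0.078 for miR-103a-3p, without UC-dFBS-1 0.43 for let-7a-5p, and without UC-dFBS-2 -0.27 for let-7b-5p. Over the samples left out, let-7b-5p ranged from -0.27 to 0.55, let-7a-5p from -1.10 to 0.43, miR-142-3p from -0.13 to 2.10, miR-21-5p from -0.091 to 1.34, miR-103a-3p from -0.078 to 0.72 and Y_RNA.384-201 from -0.70 to 0.92. miR-451a and miR-223-3p kept their sign in all 14 alternatives.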
